A study of Mus musculus with 17 samples.

Results

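The lysosomal cathepsins measured here were Ctsa, Ctsb, Ctsc, Ctsd, Ctsh, Ctsl, Ctss and Ctsz, taken by their symbols from the table of raw counts. They are 8 of the 10207 rows that carry a gene symbol, and 7 of them passed the filter on low counts; Ctsa did not. The granule protease Ctsg, which bears the cathepsin name but is stored in the azurophil granule of neutrophils, was not among them. The RNA came from sorted myeloid cells of female BALB/c mice. Tumor-associated macrophages (TAM, 3 libraries) were CD45-enriched CD11b+ Gr1- F4/80+ cells from tumors of about 1 cm, grown from 100000 4T1-luc cells in a mammary fat pad, in mice with a label age of 8 weeks. 4T1-luc is a mouse mammary carcinoma line that carries luciferase. Marrow cells of mice with such tumors (BMDM_T, 4 libraries, label age 8 weeks) were sorted as CD11b+ Gr1+ F4/80low. The same marrow gate in untreated mice gave the libraries of healthy marrow (BMDM_H, 4 in the batch used, label age 12 weeks). The labels call both marrow groups bone marrow-derived monocytes. Since every mouse with a tumor had a label age of 8 weeks and every healthy mouse one of 12 weeks, tumor and label age cannot be told apart. Tumors were digested with collagenase while marrow was flushed and freed of red cells with a lysis buffer, so tissue, digestion and gate also moved together with the group.

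Total counts were 1748338 to 3747929 in TAM, 931278 to 1218977 in BMDM_T and 387940 to 1286844 in BMDM_H. Levels are given in CPM, counts scaled to a common library size, and the labelled cell types were set beside marker genes. Macrophage markers, 11 of 12 with a row and none at 0 in any group, summed to 61721 to 76158 CPM in TAM, 2271 to 2736 CPM in BMDM_T and 2827 to 3799 CPM in BMDM_H. Neutrophil markers, 14 of 14 with a row and none at 0, summed to 383 to 611 CPM in TAM, 173015 to 210467 CPM in BMDM_T and 140006 to 214195 CPM in BMDM_H. Monocyte markers, 7 of 8 with a row, summed to 1185 to 1661 CPM in TAM, 1899 to 2837 CPM in BMDM_T and 2444 to 4575 CPM in BMDM_H. The marrow libraries were thus rich in neutrophil transcripts under a monocyte label. In such sorted samples, fewer cells of a type and less RNA per cell cannot be told apart, which holds for each cathepsin difference given here.

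Cathepsins are proteases of the lysosome that digest proteins taken up by endocytosis, phagocytosis and autophagy, and that are made as inactive precursors which mature at acid pH. Most of them are cysteine proteases of the papain family, among which cathepsins B, L and S cut within chains and cathepsins C, H and Z remove residues from their ends. Cathepsin D is an aspartic endopeptidase and cathepsin A a serine carboxypeptidase. Macrophages are rich in these enzymes, and in antigen presenting cells they trim the invariant chain and the peptides of MHC class II.

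The starts of 6 of the 8 genes were matched in the RefSeq promoter table (GRCm38.p6, windows of 250 bases before to 50 after the start), with 7 windows in all because Ctsa has a pair of starts. Ctsb and Ctsh are named only. Stretches from 200 bases before to 20 after the start are shown for Ctsd and for 1 start of Ctsa. The windows of these hold the palindrome TCACGTGA, the core of the element bound by TFEB in lysosomal promoters. Stretches are also shown for Ctss and Ctsc, whose windows hold GAGGAAGT, a form of the PU.1 motif. Capitals mark those motifs, and GAGGAAGT stands here as its reverse complement. Each sequence runs 5' to 3' on the strand of its gene.
Ctsd, chr7:142387808-142388027, minus strand: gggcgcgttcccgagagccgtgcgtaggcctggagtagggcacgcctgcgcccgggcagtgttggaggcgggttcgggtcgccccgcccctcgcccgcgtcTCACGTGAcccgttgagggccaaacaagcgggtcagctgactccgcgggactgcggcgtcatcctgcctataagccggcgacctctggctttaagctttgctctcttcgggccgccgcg
Ctsa, chr2:164833573-164833792, plus strand: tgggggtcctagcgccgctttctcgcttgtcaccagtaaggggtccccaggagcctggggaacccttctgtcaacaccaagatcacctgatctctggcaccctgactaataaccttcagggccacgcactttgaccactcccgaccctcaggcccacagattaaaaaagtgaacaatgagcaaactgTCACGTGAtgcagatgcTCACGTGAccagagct
Ctss, chr3:95526586-95526805, plus strand: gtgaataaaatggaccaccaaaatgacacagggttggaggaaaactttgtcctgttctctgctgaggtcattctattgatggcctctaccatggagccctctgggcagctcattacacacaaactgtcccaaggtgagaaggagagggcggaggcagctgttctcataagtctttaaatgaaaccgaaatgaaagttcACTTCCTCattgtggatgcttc
Ctsc, chr7:88277885-88278104, plus strand: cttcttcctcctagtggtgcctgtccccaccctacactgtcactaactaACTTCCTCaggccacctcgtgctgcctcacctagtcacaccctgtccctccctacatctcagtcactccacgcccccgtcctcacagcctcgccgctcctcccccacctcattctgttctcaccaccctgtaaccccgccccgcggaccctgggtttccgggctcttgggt
In Ctsd the palindrome began 99 bases before the RefSeq start, and in the Ctsa stretch shown copies began 13 bases before and 4 bases after it. The other Ctsa window (chr2:164832622-164832921) held none of the motifs searched. That window contains the GENCODE M21 start of the gene, at 164832873. For Ctsd the GENCODE M21 start is at 142388038, so the whole stretch shown lies inside that gene model. The Ctsl window (chr13:64370471-64370770) also lies inside its gene model, which starts at 64370890 on the minus strand. The GAGGAAGT match began 2 bases before the start of Ctss and ran across it, and in Ctsc it began 151 bases before the start. Searched on both strands, TCACGTGA was present in 0.974% of all 32851 windows and GAGGAAGT in 3.20%. The shorter CACGTG, which TCACGTGA contains, was present in 7.15% of all windows and in windows of Ctsa, Ctsd and Ctsl. TGANTCA, a form of the AP-1 motif, was present in 7.81% of all windows and in 0 of the 7 cathepsin windows. These matches describe the letters of the windows and are not evidence of binding.

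In TAM, 6 of the 7 tested cathepsins were higher than in BMDM_T, and the seventh, Ctsd, did not pass the test. Of all 7518 tested genes 30.1% were higher and 28.7% lower in that comparison. Against BMDM_H all 7 were higher in TAM, where 28.0% of all tested genes were higher and 28.3% lower. Between the marrow groups Ctsd alone passed, and was higher in BMDM_T than in BMDM_H; none of the 7 was lower, with 2 lower at an unadjusted p under 0.05, 1 lower under DESeq2 and 0 under limma-voom. With the replicate number as a block, Ctss also passed, as lower in BMDM_T (adjusted p = 0.014 with edgeR). In the reported fit, which has no block, 2.82% of all tested genes were higher and 2.00% lower in BMDM_T than in BMDM_H. Scaled by total counts only, 155 genes were higher and 218 lower in BMDM_T, against 212 and 150 in the reported fit, and Ctss and Ctsh then passed as lower. The median log2 fold change of the 7 was 2.56 for TAM against BMDM_T, against 0.03 over all tested genes. It was 2.64 for TAM against BMDM_H, against 0.02, and -0.03 for BMDM_T against BMDM_H, against -0.02. The first 2 of these comparisons share the TAM libraries, and each marrow group also enters 2 of the 3. Calls are Benjamini-Hochberg adjusted p-values under 0.05 from the quasi-likelihood test of edgeR over all tested genes, and the errors of fold changes are standard errors (SE).

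**Figure D1:**
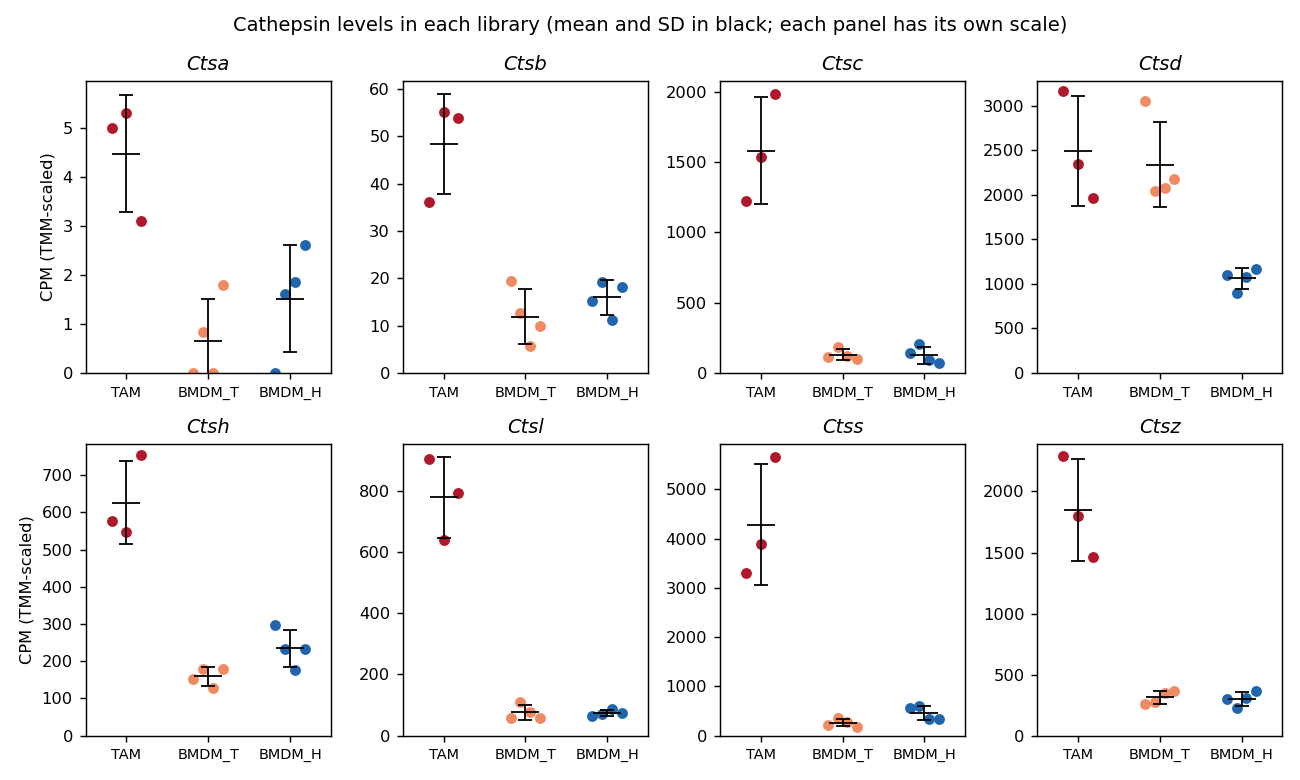
Level of each of the 8 cathepsins in each batch 1 library, in CPM on a linear axis with its own scale in each panel, with TAM on the left, then BMDM_T and BMDM_H; points are libraries, and black bars are group means with SD (n = 3, 4 and 4). The TAM points lie above both marrow groups for every tested cathepsin other than Ctsd, whose BMDM_T points (2046 to 3049 CPM) lie among those of TAM (1958 to 3162 CPM). The share of all tested genes whose libraries separate in this way was not counted. The lack of overlap, here and in the text on each gene, is therefore a description without a background.

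Ctss encodes cathepsin S, an endopeptidase of antigen presenting cells that stays active at neutral pH and cleaves the invariant chain. It had 3305, 3894 and 5655 CPM in TAM, 225, 359, 283 and 184 CPM in BMDM_T, and 563, 601, 346 and 338 CPM in BMDM_H. All TAM libraries lay above all marrow libraries, while the marrow groups overlapped, with 359 CPM in BMDM_T 2 above 346 and 338 CPM in BMDM_H 3 and 4. Ctss was 16.3-fold higher in TAM than in BMDM_T (log2 fold change 4.03 ± 0.27 SE, adjusted p = 9.1e-11) and 9.18-fold higher than in BMDM_H (3.20 ± 0.26, adjusted p = 2.11e-09). In BMDM_T it was below BMDM_H by a log2 fold change of -0.83 ± 0.24 SE, with an adjusted p = 0.0507 that missed the threshold of 0.05. With the replicate number as a block it was -0.84 with an adjusted p = 0.014, which passes.

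Ctsl encodes cathepsin L, a broad endopeptidase of the lysosome. It had 904, 641 and 792 CPM in TAM, 57.1, 111, 78.5 and 57.7 CPM in BMDM_T, and 63.7, 70.8, 85.5 and 75.5 CPM in BMDM_H. The TAM values stood far above the rest, and the BMDM_H values lay within the range of BMDM_T. Ctsl was 10.2-fold higher in TAM than in BMDM_T (3.35 ± 0.21 SE on the log2 scale, adjusted p = 4.47e-11) and 10.7-fold higher than in BMDM_H (3.42 ± 0.22, adjusted p = 6.42e-11). For BMDM_T against BMDM_H the log2 fold change was 0.07 ± 0.22 SE (adjusted p = 0.917), so a difference in Ctsl within marrow was not detectable here.

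Ctsb encodes cathepsin B, an endopeptidase that also removes dipeptides from chain ends. It was counted at low levels, with 36.1, 55.2 and 53.8 CPM in TAM, 19.4, 12.6, 5.77 and 9.92 CPM in BMDM_T, and 15.1, 19.3, 11.2 and 18.2 CPM in BMDM_H. Even so the lowest TAM library was above the highest marrow library. Ctsb was 4.06-fold higher in TAM than in BMDM_T (log2 fold change 2.02 ± 0.29 SE, adjusted p = 5.63e-06) and 3.00-fold higher than in BMDM_H (1.59 ± 0.29, adjusted p = 0.000114). With all libraries thinned to 387940 counts neither call was kept: the log2 fold change was 1.52 ± 0.66 SE against BMDM_T (adjusted p = 0.0788) and 1.33 ± 0.65 against BMDM_H (adjusted p = 0.125). Between the marrow groups the log2 fold change of BMDM_T against BMDM_H was -0.44 ± 0.34 SE (adjusted p = 0.575). In mm10, the last kilobase of Ctsb overlaps Fdft1 on the other strand, and since the strand setting of the counting is not given in the sources used here, reads of the overlap cannot be assigned to either gene.

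Ctsc encodes cathepsin C, or dipeptidyl peptidase I, which activates the serine proteases of granules by removing their propeptides. It had 1224, 1533 and 1980 CPM in TAM, 109.8, 184, 122 and 100.1 CPM in BMDM_T, and 141, 205, 89.3 and 70.3 CPM in BMDM_H. The marrow groups overlapped over most of their range, and every TAM library lay far above them. Ctsc was 12.2-fold higher in TAM than in BMDM_T (log2 fold change 3.61 ± 0.28 SE, adjusted p = 1.1e-09) and 12.0-fold higher than in BMDM_H (3.58 ± 0.29, adjusted p = 1.67e-09). Within marrow, BMDM_T against BMDM_H gave a log2 fold change of -0.03 ± 0.27 SE (adjusted p = 0.98).

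The granule proteases that cathepsin C activates went the other way. Prtn3, proteinase 3, averaged 25.1 ± 3.45 CPM in TAM, 5563 ± 1228 CPM in BMDM_T and 1338 ± 151 CPM in BMDM_H (SD, n = 3, 4 and 4). Elane, neutrophil elastase, averaged 0.802 ± 0.700 CPM in TAM, 432 ± 54.4 CPM in BMDM_T and 143 ± 33.2 CPM in BMDM_H. Ctsg, cathepsin G, averaged 0.707 ± 0.284 CPM in TAM, 529.8 ± 82.4 CPM in BMDM_T and 159 ± 67.5 CPM in BMDM_H. All 3 were higher in BMDM_T than in BMDM_H, with log2 fold changes of 2.06 ± 0.18 SE for Prtn3 (adjusted p = 5.03e-07), 1.59 ± 0.19 for Elane (1.57e-05) and 1.69 ± 0.23 for Ctsg (0.000114). Ctsc itself did not pass in that comparison. Whether the ratio of Ctsc to its substrates differed between groups was not tested, and all 3 substrates are also neutrophil markers of the list above.

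Ctsh encodes cathepsin H, an aminopeptidase. It had 578, 548 and 753 CPM in TAM, 153, 178, 127 and 179.5 CPM in BMDM_T, and 298, 232, 177 and 232 CPM in BMDM_H. Ctsh kept TAM above marrow in all libraries, and 1 BMDM_H library, at 177 CPM, fell within the BMDM_T range. It was 3.92-fold higher in TAM than in BMDM_T (log2 fold change 1.97 ± 0.19 SE, adjusted p = 2.13e-08) and 2.65-fold higher than in BMDM_H (1.41 ± 0.19, adjusted p = 2.47e-06). BMDM_T had lower values than BMDM_H without passing, at a log2 fold change of -0.57 ± 0.18 SE (adjusted p = 0.0836).

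Ctsz encodes cathepsin Z, also called X, a carboxypeptidase. It had 2288, 1802 and 1460 CPM in TAM, 263, 272, 349 and 369 CPM in BMDM_T, and 297, 224, 312 and 362 CPM in BMDM_H. Here too TAM and marrow did not overlap, and the marrow groups did. Ctsz was 5.91-fold higher in TAM than in BMDM_T (log2 fold change 2.56 ± 0.20 SE, adjusted p = 1.08e-09) and 6.25-fold higher than in BMDM_H (2.64 ± 0.20, adjusted p = 9.82e-10). For BMDM_T against BMDM_H the log2 fold change was 0.08 ± 0.19 SE (adjusted p = 0.882).

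Ctsd encodes cathepsin D, the main aspartic protease of the lysosome, and its pattern was unlike that of the cysteine cathepsins. It had 3162, 2346 and 1958 CPM in TAM, 3049, 2046, 2075 and 2172 CPM in BMDM_T, and 1101, 898, 1077 and 1166 CPM in BMDM_H. TAM and BMDM_T overlapped throughout, and every one of their libraries lay above every BMDM_H library. For TAM against BMDM_T the log2 fold change was 0.09 ± 0.20 SE (adjusted p = 0.705), which does not show that the levels were alike. Ctsd was 2.21-fold higher in BMDM_T than in BMDM_H (1.14 ± 0.19 SE, adjusted p = 0.000732) and 2.35-fold higher in TAM than in BMDM_H (1.23 ± 0.20, adjusted p = 2.16e-05). BMDM_T 1 stood apart at 3049 CPM, and without it the log2 fold change of BMDM_T against BMDM_H was 1.00 (adjusted p = 0.00257). Of 11 macrophage markers 0 were higher and 4 lower in BMDM_T than in BMDM_H (0 higher at an unadjusted p under 0.05, under DESeq2 and under limma-voom). Of 14 neutrophil markers 6 were higher and 0 lower (8 higher at an unadjusted p under 0.05, 6 under DESeq2 and 6 under limma-voom). The other 8 did not pass, among them Camp (-0.48), Ngp (-0.30) and Ltf (-0.07) with negative log2 fold changes. The median of the neutrophil list was 0.58. Over all tested genes 2.82% were higher and 2.00% lower. The part of these markers in the Ctsd result was not tested. In mm10 a gene model named Gm49369 shares 6757 bases with Ctsd on the same strand, and no row here carries its symbol. The annotation of the counting is not given in the sources used here, so how reads of the shared bases were counted is not known.

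Ctsa encodes cathepsin A, which holds neuraminidase 1 and beta-galactosidase in a protective complex. Its counts were 9, 10 and 12 in TAM, 0, 1, 0 and 2 in BMDM_T, and 0, 2, 1 and 1 in BMDM_H. TAM libraries had more counts than any marrow library, and the marrow groups overlapped. In CPM the values were 3.1 to 5.3 in TAM, at most 1.8 in BMDM_T and at most 2.6 in BMDM_H. With no filter on low counts, the log2 fold change was 2.52 ± 0.84 SE for TAM against BMDM_T (adjusted p = 0.0149), 1.84 ± 0.81 for TAM against BMDM_H (0.0634) and -0.69 ± 1.2 for BMDM_T against BMDM_H (0.851). From the summed counts, scaled for library size, the ratio was 5.6 for TAM against BMDM_T (31 against 3 counts, exact 95% interval 1.75 to 28.6). It was 3.51 for TAM against BMDM_H (31 against 4 counts, 1.24 to 13.7) and 0.627 for BMDM_T against BMDM_H (3 against 4 counts, 0.0918 to 3.71). These intervals cover counting error only. The last kilobase of Ctsa overlaps Pltp on the other strand, which averaged 106 ± 44.3 CPM in TAM, 11.8 ± 4.34 CPM in BMDM_T and 18.7 ± 11.6 CPM in BMDM_H, and reads of the overlap cannot be assigned to either gene. Of its partners, Glb1 (beta-galactosidase) averaged 88.8 ± 8.93 CPM in TAM, 30.3 ± 3.94 CPM in BMDM_T and 28.3 ± 11.3 CPM in BMDM_H. Its log2 fold change was 1.54 for TAM against BMDM_T and 1.66 for TAM against BMDM_H, both past the threshold. After thinning, edgeR gave 0.54 (adjusted p = 0.431) and 1.07 (adjusted p = 0.114). Neu1 failed the filter, with 19 counts in TAM, 6 in BMDM_T and 7 in BMDM_H. Scaled for library size it averaged 2.8, 1.5 and 1.4 CPM.

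**Figure D2:**
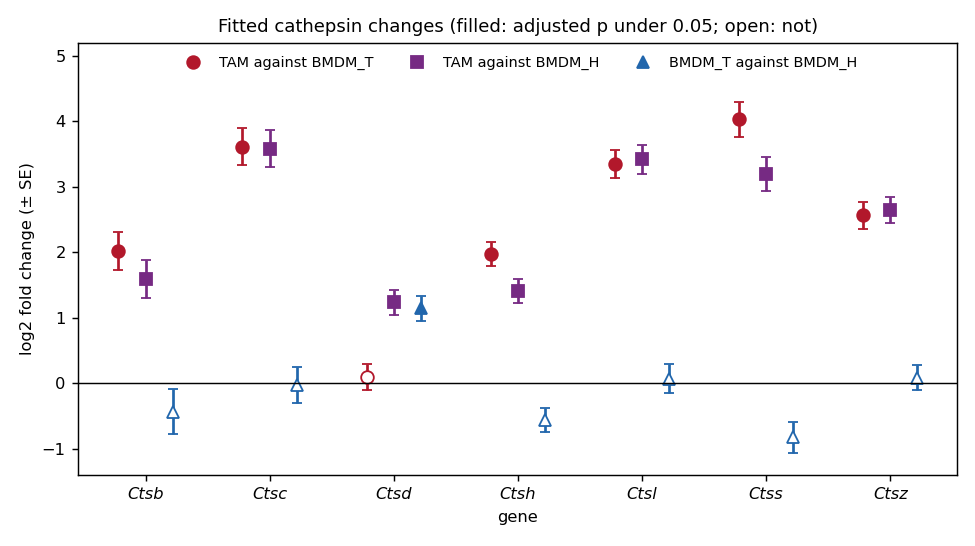
Log2 fold changes of the 7 tested cathepsins, with bars of 1 SE, for TAM against BMDM_T, TAM against BMDM_H and BMDM_T against BMDM_H; filled symbols passed an adjusted p of 0.05. The marrow comparison has 1 filled symbol, Ctsd at 1.14, and TAM against BMDM_T has 1 open symbol, also Ctsd, at 0.09.

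In mm10 (GENCODE M21) all 8 are protein-coding genes. Ctsa (164832873 to 164841032, plus strand) and Ctsz (174427493 to 174439039, minus strand) lie on chromosome 2, and Ctsc (88278085 to 88310888, plus strand) and Ctsd (142375911 to 142388038, minus strand) on chromosome 7. Ctss lies on chromosome 3 (95526786 to 95556403, plus strand), Ctsh on chromosome 9 (90054152 to 90076089, plus strand), Ctsl on chromosome 13 (64359337 to 64370890, minus strand) and Ctsb on chromosome 14 (63122462 to 63145923, plus strand). The nearest other cathepsin is Ctsk, the collagen-degrading cathepsin K of osteoclasts, 17423 bases from Ctss. Ctsk failed the filter and averaged 17.9 ± 9.49 CPM in TAM, 3.77 ± 1.37 CPM in BMDM_T and 2.43 ± 2.45 CPM in BMDM_H (SD, n = 3, 4 and 4).

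The makeup of the cathepsin counts is given per library as a description, with no test. The 8 genes together took 1.16% to 1.31% of the counts of a TAM library, 0.283% to 0.350% of a BMDM_T library and 0.203% to 0.248% of a BMDM_H library. Without Ctsd the shares were 0.859% to 1.10% in TAM, 0.0746% to 0.109% in BMDM_T and 0.0988% to 0.149% in BMDM_H, so that the marrow groups overlapped once Ctsd was left out. Ctsd made up 21.5% of the cathepsin counts in TAM (15.5% to 27.5% over libraries), 70.6% in BMDM_T (64.7% to 78.7%) and 46.8% in BMDM_H (39.9% to 51.5%). Ctss made up 36.5% in TAM (28.7% to 44.7%), 8.11% in BMDM_T (5.81% to 11.3%) and 20.2% in BMDM_H (14.9% to 26.7%). The ranges of the 3 groups did not overlap for either gene. Ctsh made up 5.35% in TAM, 4.90% in BMDM_T and 10.3% in BMDM_H, and its BMDM_H range of 8.41% to 12.0% lay above that of both other groups. Shares are of counts from the 3' ends of transcripts and follow the counting of each gene, so the order of the genes within a library is not a ranking of their levels.

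**Figure D3:**
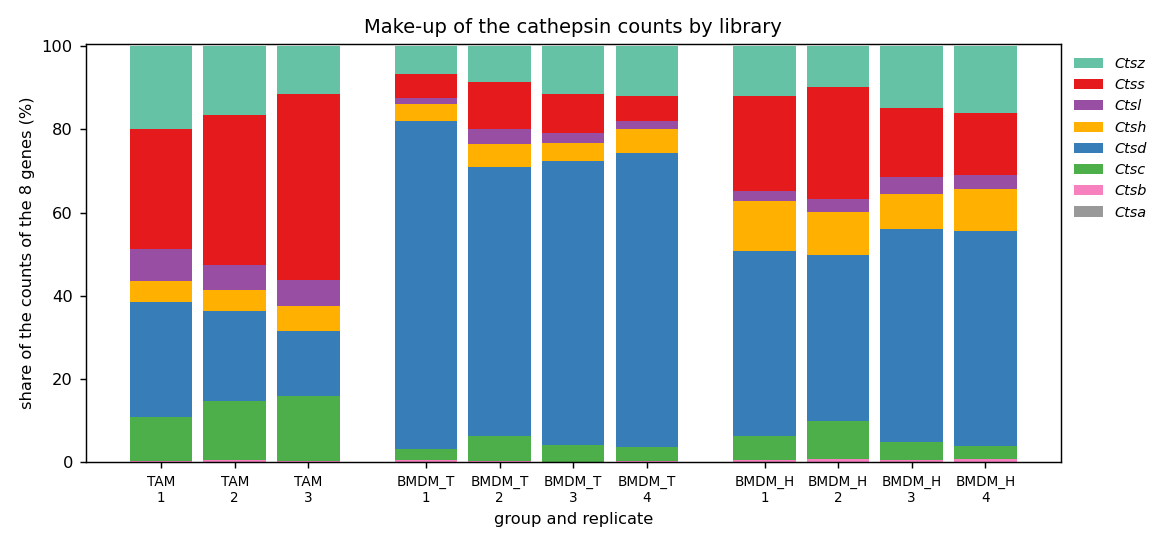
Share of each cathepsin in the summed counts of the 8 cathepsins, in percent, per library, stacked to 100%, with TAM first, then BMDM_T and BMDM_H. Ctsd takes 64.7% to 78.7% of the bars of BMDM_T and 15.5% to 27.5% of those of TAM.

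Within TAM the cathepsins did not move as a block. TAM 1 had the highest Ctsd, Ctsz and Ctsl and the lowest Ctsb, Ctsc and Ctss, while TAM 3 had the highest Ctsc, Ctss and Ctsh and the lowest Ctsd and Ctsz. The likeness of profiles was measured as the root mean square difference between log2(CPM + 1) values over the 11 libraries, each centred on its own mean, and is given as a description. Between cathepsins it was smallest for Ctsb and Ctsh (0.38), Ctsc and Ctss (0.428) and Ctsc and Ctsl (0.491), and largest for Ctsd and Ctss (1.65). Among 4001 genes with a mean of at least 30 CPM, the closest to Ctsd were Furin (0.242), a proprotein convertase, Dbi (0.252), an acyl-CoA binding protein, and Slc16a3 (0.261), a lactate transporter. Closest to Ctsh were Irf7 (0.215), a regulator of interferon genes, Tmem173 (0.254), which encodes STING, and Adgrg5 (0.258). Closest to Ctss were Lgals3bp (0.249), Tbxas1 (0.343), thromboxane synthase, and Cdkn1a (0.388), a cell cycle inhibitor. For Ctsl they were Ets2 (0.283), Cd72 (0.289) and P2rx4 (0.300), for Ctsc Fcgr2b (0.376), Cpq (0.384) and Ntpcr (0.386), for Ctsz Snx8 (0.265), Cndp2 (0.279) and Ada (0.280), and for Ctsb Plekhb2 (0.277), Cd68 (0.281) and Nudt16 (0.347).

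Of 7 tested genes among the other cathepsins and lysosomal endopeptidases, 4 were higher and 3 lower in TAM than in BMDM_T, where 30.1% of all tested genes were higher and 28.7% lower. Against BMDM_H the counts were also 4 and 3, beside 28.0% and 28.3% of all tested genes. Lgmn, legumain, the asparaginyl endopeptidase that processes precursors of cathepsins, had 4679, 4532 and 4495 CPM in TAM, 92.6, 157, 137 and 119 CPM in BMDM_T, and 117, 155, 160 and 200.4 CPM in BMDM_H. It was 36.0-fold higher in TAM than in BMDM_T (log2 fold change 5.17 ± 0.22 SE, adjusted p = 1.27e-13) and 29.4-fold higher than in BMDM_H (4.88 ± 0.22, adjusted p = 3.13e-13). The TAM libraries of Lgmn lay close together, and the marrow groups overlapped. Scpep1 and Ctsf were also higher in TAM than in BMDM_T, by 3.08 ± 0.21 and 4.32 ± 0.45 SE on the log2 scale. Lower in TAM were Ctsg, the aspartic protease gene Napsa (-3.88 ± 0.25 SE against BMDM_T) and Ctse, cathepsin E (-1.95 ± 0.34), whose call was lost on thinning (adjusted p = 0.0765). In BMDM_T against BMDM_H, 1 of the 7, Ctsg, was higher, beside 2.82% of all tested genes.

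Of 9 tested inhibitors of cathepsins and of granule proteases, 2 were higher and 6 lower in TAM, against either marrow group. Of all tested genes 30.1% were higher and 28.7% lower in TAM than in BMDM_T, and 28.0% and 28.3% than in BMDM_H. The higher ones were Cst3, cystatin C, the secreted inhibitor of cysteine cathepsins, and Cstb, the cytosolic stefin B. Cst3 averaged 2481 ± 254 CPM in TAM, 1291 ± 52.8 CPM in BMDM_T and 1332 ± 289 CPM in BMDM_H (SD, n = 3, 4 and 4). Its log2 fold change was 0.94 ± 0.18 SE for TAM against BMDM_T (adjusted p = 0.000118), smaller in value than those of the 6 cathepsins called there; the differences between these fold changes were not tested. Cstb averaged 690 ± 110 CPM in TAM, 242 ± 20.2 CPM in BMDM_T and 184 ± 24.7 CPM in BMDM_H, with a log2 fold change of 1.51 ± 0.16 SE for TAM against BMDM_T (adjusted p = 1.29e-07). Neither passed for BMDM_T against BMDM_H, with adjusted p = 0.929 for Cst3 and 0.195 for Cstb by the quasi-likelihood test of edgeR.

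Among the inhibitors that were lower in TAM, levels there ranged from 0 counts for Stfa2l1 to 9.06 ± 3.05 CPM for Cst7, cystatin F, named here after its values were seen. Cst7 averaged 44.5 ± 11.9 CPM in BMDM_T and 20.1 ± 10.7 CPM in BMDM_H. Serpinb1a, an inhibitor of neutrophil serine proteases, averaged 2.29 ± 1.85 CPM in TAM, 982 ± 186 CPM in BMDM_T and 584 ± 165 CPM in BMDM_H. The stefin A gene Stfa3 averaged 0.539 ± 0.531 CPM in TAM, 130 ± 89.6 CPM in BMDM_T and 8.82 ± 4.33 CPM in BMDM_H. Within marrow, 3 inhibitors were higher in BMDM_T than in BMDM_H, all stefin A genes: Stfa3 (3.96 ± 0.48 SE on the log2 scale, adjusted p = 2.5e-05), BC100530 (3.28 ± 0.57, adjusted p = 0.00134) and Stfa2 (2.74, adjusted p = 0.0115). Stfa2 lost its call in 5 alternatives, with adjusted p = 0.0788 under DESeq2, and BC100530 in 1, limma-voom, with adjusted p = 0.0503. The stefin A genes are close copies of each other, so reads may be split among them and their single values are uncertain. Serpinb6a was lower (-0.78, adjusted p = 0.0438 with edgeR), a call lost in 11 alternatives. Of all tested genes 2.82% were higher and 2.00% lower in BMDM_T than in BMDM_H. The median of the list is not given because Stfa2l1 had 0 counts in all TAM libraries.

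Among 8 tested partners and substrates of the cathepsins, 5 were higher and 3 lower in TAM, again against either marrow group, and 2 (Prtn3 and Elane) were higher in BMDM_T than in BMDM_H. The shares among all tested genes were 30.1% higher and 28.7% lower in TAM than in BMDM_T, and 28.0% and 28.3% against BMDM_H. In BMDM_T against BMDM_H 2.82% were higher. Cd74, the invariant chain that cathepsin S cleaves, averaged 9958 ± 3384 CPM in TAM, 366 ± 112 CPM in BMDM_T and 431 ± 137 CPM in BMDM_H. Cd74 was 27.2-fold higher in TAM than in BMDM_T (4.76 ± 0.30 SE on the log2 scale, adjusted p = 3.59e-11), and in BMDM_T against BMDM_H it did not pass (-0.22 ± 0.26, adjusted p = 0.726).

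Of 20 tested genes that sort enzymes to the lysosome, 7 were higher and 4 lower in TAM than in BMDM_T, 8 higher and 6 lower than in BMDM_H, and 1 higher in BMDM_T than in BMDM_H. Among all tested genes 30.1% were higher and 28.7% lower in TAM than in BMDM_T, so the share higher in this list lay near the background. Against BMDM_H the shares of all tested genes were 28.0% and 28.3%, and 2.82% were higher in BMDM_T than in BMDM_H. The gene higher in BMDM_T was Scarb2, the receptor that carries glucocerebrosidase (log2 fold change 0.66, adjusted p = 0.0237), with a call lost in 7 alternatives. The receptors for cathepsin precursors split. M6pr, the cation-dependent mannose 6-phosphate receptor, averaged 445 ± 13.6 CPM in TAM, 141 ± 20.3 CPM in BMDM_T and 146 ± 30.6 CPM in BMDM_H, and was higher in TAM than in BMDM_T by 1.66 ± 0.17 SE on the log2 scale (adjusted p = 5.69e-08). Igf2r, the cation-independent receptor for the same tag, averaged 6.46 CPM in TAM, 61.2 CPM in BMDM_T and 62.9 CPM in BMDM_H with a log2 fold change of -3.36 ± 0.27 SE for TAM against BMDM_T (adjusted p = 1.67e-09). Sort1, sortilin, averaged 1.69 CPM in TAM, 124 CPM in BMDM_T and 139 CPM in BMDM_H with a log2 fold change of -6.27 ± 0.30 SE for TAM against BMDM_T (adjusted p = 6.65e-13).

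Most of the other lysosomal hydrolases were higher in TAM as well. Of 31 tested hydrolases outside the cathepsins, 25 were higher and 1 lower in TAM than in BMDM_T, and 19 higher and 3 lower than in BMDM_H. Beside these counts and those of the membrane and pump genes below, 30.1% of all tested genes were higher and 28.7% lower in TAM than in BMDM_T. Against BMDM_H the shares were 28.0% and 28.3%. For TAM against BMDM_T the median log2 fold change of the 31 hydrolases was 1.46, against 0.03 over all tested genes. Acp5, the tartrate-resistant acid phosphatase, averaged 663 ± 123 CPM in TAM, 25.8 ± 9.41 CPM in BMDM_T and 32.3 ± 14.3 CPM in BMDM_H, and was higher in TAM than in BMDM_T by 4.68 ± 0.29 SE on the log2 scale (adjusted p = 3.17e-11). Naglu and Gusb, which degrade glycosaminoglycans, were higher in TAM than in BMDM_T by 3.00 and 2.18 on the log2 scale. Of 23 tested genes of the lysosomal membrane and proton pump, 11 were higher and 3 lower in TAM than in BMDM_T, and 12 higher and 1 lower than in BMDM_H, with Cd68 (2.33), Cd63 (1.31) and Lamp1 (1.19) among the higher in TAM than in BMDM_T. The 3 lower in TAM than in BMDM_T, named after their values were seen, were all subunits of the proton pump, Atp6v0a1 (-0.82), Atp6v1b2 (-1.05) and Atp6v1g1 (-0.62). In BMDM_T against BMDM_H, where Ctsd was higher, 0 of the 31 other hydrolases were higher in the edgeR test, and also 0 at an unadjusted p under 0.05, under DESeq2 and under limma-voom. Lower in BMDM_T was 1 of them, Dnase2a, with a call lost in 7 alternatives, and 9 were lower at an unadjusted p under 0.05. Over all tested genes 2.82% were higher and 2.00% lower in the edgeR test. Of the membrane and pump genes 0 passed in either direction in the edgeR test, with 4 higher and 2 lower at an unadjusted p under 0.05, 1 higher under DESeq2 and 0 under limma-voom.

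Of 12 tested transcription factors and sensors of the lysosome, 4 were higher and 4 lower in TAM than in BMDM_T, and 3 higher and 3 lower than in BMDM_H, close to the shares among all tested genes (30.1% and 28.7%, and 28.0% and 28.3%). Tfeb, a master regulator of lysosomal genes, averaged 25.8 ± 0.629 CPM in TAM, 70.5 ± 17.1 CPM in BMDM_T and 89.5 ± 18.4 CPM in BMDM_H. It was lower in TAM than in BMDM_T, with a log2 fold change of -1.45 ± 0.22 SE (adjusted p = 9.46e-06, and 0.126 after thinning), the direction opposite to that of the cathepsins. Its relative Tfe3 was also lower (-0.44, adjusted p = 0.0232), a call lost in 5 alternatives. Tfec passed in the edgeR test for TAM against BMDM_H (1.44, adjusted p = 0.00225) but not against BMDM_T (0.64, adjusted p = 0.089, and 0.79 with adjusted p = 0.0426 when scaled by total counts only). Mitf failed the filter with 43 counts in TAM, 15 in BMDM_T and 5 in BMDM_H, or 5.4, 3.9 and 1.4 CPM on average. In BMDM_T against BMDM_H, 0 of the 12 passed in the edgeR test, and also 0 at an unadjusted p under 0.05, under DESeq2 and under limma-voom.

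**Figure D4:**
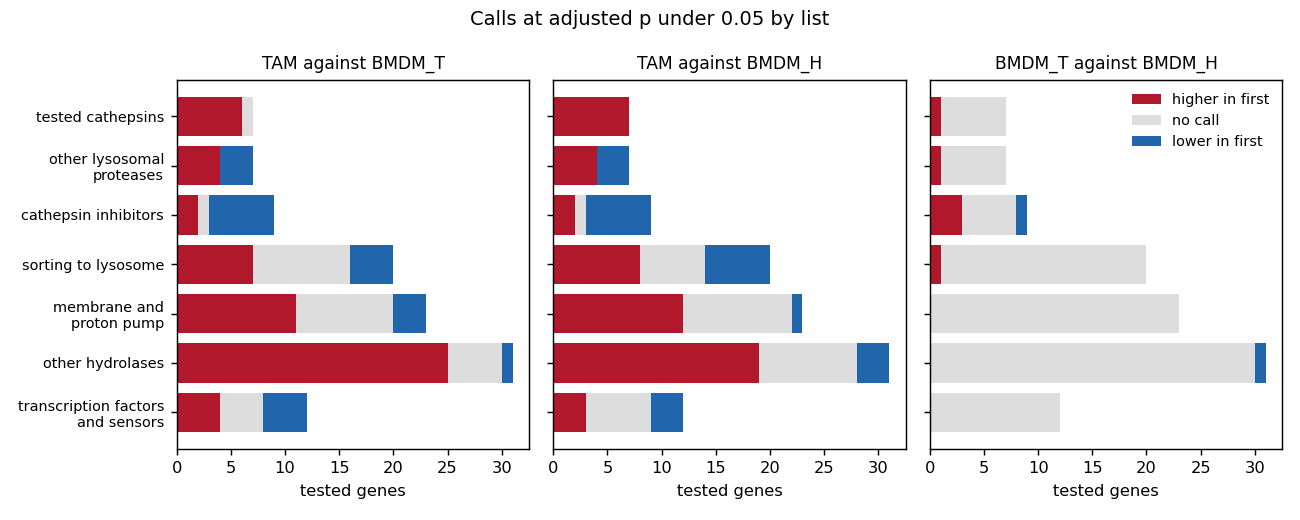
Number of tested genes of each list that were higher in the group named first (red), lower in it (blue) or not called (grey), in a panel each for TAM against BMDM_T, TAM against BMDM_H and BMDM_T against BMDM_H. Hydrolases outside the cathepsins show 25 of 31 higher in TAM than in BMDM_T, while the inhibitors show 6 of 9 lower. Of all tested genes 30.1% were higher and 28.7% lower in that comparison.

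Marker lists of other cells were summed in the same libraries. The sums of some lists differed between the groups, while others, such as that of the dendritic cell list, overlapped in all 3. Genes of a list can move in opposite directions within such a sum. Epithelial and carcinoma markers, 8 of 9 with a row and none at 0, summed to 77.8 to 117 CPM in TAM, 21.5 to 46.2 CPM in BMDM_T and 33.4 to 80.7 CPM in BMDM_H. Krt18 alone gave 51.85 CPM of the mean TAM sum of 96.8 CPM. Krt8, Cdh1, Krt14 and Krt19 also averaged more in TAM than in either marrow group, while Krt7, Epcam and Cldn4 did not. Epcam averaged 1.9 CPM in TAM, 2.3 CPM in BMDM_T and 2.8 CPM in BMDM_H. Fibroblast and endothelial markers, 6 of 10 with a row and 1 of them at 0 in BMDM_H, summed to 78.3 to 108 CPM in TAM, 25.4 to 38.8 CPM in BMDM_T and 14.9 to 61.3 CPM in BMDM_H. Pecam1 alone gave 62.24 CPM of the mean TAM sum of 93.87 CPM. Kdr, Sparc and Col3a1 also averaged more in TAM than in either marrow group, while Col1a1 and Col1a2 averaged most in BMDM_H. Genes of stress and tissue dissociation, 15 of 16 with a row, summed to 11032 to 11703 CPM in TAM, 4101 to 7068 CPM in BMDM_T and 5638 to 6977 CPM in BMDM_H. Erythroid markers, 7 of 12 with a row, 4 of them at 0 in TAM and 1 at 0 in BMDM_T, summed to 11.1 to 16.3 CPM in TAM, 6.31 to 21.9 CPM in BMDM_T and 58.1 to 281 CPM in BMDM_H. The TAM sum averaged 13.55 CPM, of which Ermap gave 10.36 CPM, while Ermap averaged 0.21 CPM in BMDM_T. B cell markers, 7 of 9 with a row and 5 of them at 0 in TAM, summed to 7.22 to 14.9 CPM in TAM, 382 to 649 CPM in BMDM_T and 162 to 389 CPM in BMDM_H. T and NK cell markers, 3 of 10 with a row, summed to 8.33 to 18 CPM in TAM, 239.5 to 301 CPM in BMDM_T and 190 to 307 CPM in BMDM_H. Cd4 gave 13.08 CPM of the mean TAM sum of 13.87 CPM and averaged less in BMDM_T (3.7 CPM) and BMDM_H (4.7 CPM). Cd3d and Nkg7 averaged less in TAM (0.36 and 0.44 CPM) than in BMDM_T (125 and 151 CPM) and BMDM_H (200 and 62.6 CPM). Dendritic cell markers, 3 of 8 with a row, summed to 5.69 to 22.8 CPM in TAM, 12.6 to 17.7 CPM in BMDM_T and 9.55 to 29.8 CPM in BMDM_H. Within that sum Ccr7 averaged more in TAM (14.7 CPM) than in BMDM_T (3.1 CPM) and BMDM_H (4.3 CPM). Flt3 (0.27, 7.7 and 8.6 CPM in the same order) and Cd209a (0.90, 3.7 and 4.6 CPM) averaged less. None of the 3 passed the filter on low counts, so the overlap of the sums does not show that this cell type was alike. Mast cell, basophil and eosinophil markers, 7 of 9 with a row and 4 of them at 0 in TAM, summed to 0.776 to 1.67 CPM in TAM, 379 to 450 CPM in BMDM_T and 302 to 597 CPM in BMDM_H. The part of these transcripts in the cathepsin differences was not tested.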

How the data were processed

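RNA of 17 libraries was prepared as 3'-end mRNA libraries with a barcode and a molecular identifier, per the labels' protocols. The submitters' processing notes name the build mm10 and the tools HTSeq, STAR 2.4.2a and bcl2fastq. The deposited values are raw counts per gene in a table of 24421 rows, of which 10207 carry a symbol. How identifiers were collapsed, the annotation, strand setting and gene filter: not given in the sources used here. The 11 libraries of batch 1 were used. The 6 of batch 2 were not used by gene, because Spearman correlations with batch 1 over the symbols were -0.02 to 0 in 66 pairs.

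One fit over the 3 groups of batch 1 was made in edgeR 4.0.16 (R 4.3.3) with filterByExpr, TMM, estimateDisp, glmQLFit and glmQLFTest. It tested 7518 genes, and a call is a Benjamini-Hochberg adjusted p-value under 0.05. The SE was computed from the unshrunken log2 fold change and F, as their quotient after taking the root of F. CPM are counts scaled by TMM library sizes, with SD as errors. Alternatives used other size factors, DESeq2 1.42.0, voom of limma 3.58.1, no filter, thinning to 387940 counts, fewer libraries and the replicate block.

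The cathepsins and the 20 gene lists were chosen with earlier results of these data known. Named genes outside the cathepsins are at most 4 per list and comparison with the smallest p among calls, fixed partners and regulators, and 3 genes per cathepsin closest in profile. A gene that this rule names is not reported here. The replicate numbers come from the labels, which do not say what they share. Deviations from the group means of BMDM_T and BMDM_H with the same number correlated across genes (r = 0.21, 0.24, 0.13 and 0.12). Libraries with unlike numbers were not compared in this way, so these values cannot show whether the numbers mark pairs. The reported fit does not use the numbers, and the block is an alternative whose value stands beside each cathepsin call it changes. TAM and BMDM_T gave 0.014, -0.034 and 0.078. All replicates differed by more than sampling noise, with chi-square per degree of freedom of 3.07 to 16.3. Nothing in the labels ties replicates to separate mice. The p-values therefore reflect the variation among these libraries, some of which may be technical.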

Additional observations from a re-analysis of the deposited data

Results flagged for a closer look

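Ctsd in BMDM_T 1 was 3049 CPM, while the other BMDM_T libraries had 2046 to 2172 CPM. The gap to the nearest was 0.874 of the range of the group, above Dixon's critical value for 4 samples. Of 16 groups examined this was the one so marked, and chance marks about 1 in 20. Without this library Ctsd stayed higher in BMDM_T than in BMDM_H.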

How the results depend on the processing

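Over 21 alternatives the calls of the cathepsins for TAM against BMDM_T and TAM against BMDM_H held, other than those of Ctsb on thinning (log2 fold change 1.52 and 1.33, adjusted p = 0.0788 and 0.125 with edgeR). Ctsd kept its call within marrow. Thinning to 387940 counts left 1872 genes called for TAM against BMDM_T (4426 in the reported fit), 1767 for TAM against BMDM_H (4230) and 68 for BMDM_T against BMDM_H (362). Ctss for BMDM_T against BMDM_H passed in 11 of 21: with total counts only (-0.94, adjusted p = 0.0313, with Ctsh also called at -0.67, adjusted p = 0.0422, and 3 cathepsins in all), under DESeq2 (-0.81, 0.0227), with no filter (-0.80, 0.0499), in a fit of the 2 groups alone (-0.85, 0.0255), without BMDM_H 3 and 4 (-1.15, 0.0213) and with the replicate block (-0.84, 0.014), each of the last 5 giving 2 cathepsins. The block moved the calls of that comparison to 468, and without BMDM_H 3 and 4 there were 179. Signs of values near 0 turned for BMDM_T against BMDM_H: Ctsl -0.031 and Ctsz -0.014 with total counts only, Ctsc 0.0080 under DESeq2, 0.029 on thinning and 0.020 with the block, and Ctsl -0.041 on thinning; Ctsd for TAM against BMDM_T was -0.0012 on thinning. With total counts only the calls for BMDM_T against BMDM_H were 155 higher and 218 lower, against 212 and 150, and the median of all genes was 0.179 for TAM against BMDM_T and -0.125 for BMDM_T against BMDM_H. Leaving out each library in turn gave 4107 to 4450, 238 to 409 and 3815 to 4297 calls for TAM against BMDM_T, BMDM_T against BMDM_H and TAM against BMDM_H, the 238 without BMDM_H 2, and 6, 1 to 2 and 7 cathepsins. For BMDM_T against BMDM_H it gave Ctss -1.02 to -0.67, Ctsc -0.25 to 0.31, Ctsl -0.18 to 0.19 and Ctsz -0.035 to 0.19. Ctsd for TAM against BMDM_T ran from -0.13 to 0.23. The cause of these shifts was not tested. Ctsa and Neu1 had too few counts to pass the filter.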
